A study of Mus musculus with 16 samples.

Results

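Conventional CD4 T cells of B16 melanomas were chosen by their own transcripts, as barcodes that carried T cell receptor complex and Cd4 transcripts and lacked Cd8, Foxp3 and Ncr1. In each of the 8 single-cell matrices a barcode was kept if it showed 200 or more genes and if mitochondrial transcripts made up 10% of it or less. A member had at least 2 unique molecular identifiers (UMIs, 1 per captured transcript) of Cd3d, Cd3e, Cd3g and Trac together, and at least 1 of Cd4. It had none of Cd8a, Cd8b1, Foxp3 or Ncr1 and at most 5 of C1qa, C1qb and C1qc together. This gave 1338 members among 99357 kept barcodes, or 1.35%, out of 27240 barcodes that passed the T cell part of the rule. By lane there were 149 and 93 members in control isotype, 196 and 115 in control CD40, 58 and 139 in B2m-null isotype, and 95 and 493 in B2m-null CD40.

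The tumours grew from 1000000 cells of the Bro4.1 B16 melanoma line under the skin of C57BL/6J mice, either control cells or cells lacking B2m, the light chain of MHC class I. All mice received antibody into the peritoneum on days 6, 9 and 12, either 100 µg of anti-CD40 or as much rat IgG2a isotype antibody, and tumours were taken on day 14 and enriched for CD45-positive cells on magnetic beads. The 4 groups are named by tumour and antibody: control isotype and control CD40, and their B2m-null counterparts. Cells of each mouse carried 1 hashtag antibody and the mice of a pool shared a 10x lane, so a mouse is known only through its hashtag. The sample labels give the genotype as that of the mouse, and the design text places it in the implanted cells, which was followed here. Each group had 2 lanes. Those of control CD40 are labelled technical replicates and were summed as 1 pool with 2 mice, so this pool and its treatment cannot be told apart. The labels list 3 hashtags for each lane, while the hashtag counts used here hold 3 in 2 lanes and 2 in the other 6. The number of mice given is that of the hashtags counted, so a pool may have held a mouse that is not seen here.

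Conventional CD4 T cells recognise peptides on MHC class II and help other immune cells through secreted cytokines and through membrane ligands such as CD40 ligand, which engages CD40 on dendritic cells, macrophages and B cells. Activated CD4 T cells can take up a T helper 1 programme, with the transcription factor T-bet and the cytokine interferon-gamma, and interleukin-12 and interleukin-18 from myeloid cells promote that programme. Regulatory T cells, marked by the transcription factor Foxp3, are the other main CD4 population of tumours and restrain the response. CD4 T cells do not read MHC class I, so they can still respond to antigen on host cells when tumour cells lack B2m.

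B2m served as a check of the labels. Carry-over melanoma barcodes, with at least 20 melanocyte UMIs, held 865 to 1951 B2m counts per 1000000 UMIs (CPM) in the control lanes and 156 to 372 CPM in the B2m-null lanes. In the conventional CD4 T cells, which are host cells, B2m lay between 2572 and 4062 CPM in all 8 lanes. Members had a median of 1470 to 4055 UMIs per barcode. Hashtags assigned 1140 of the members to 1 mouse, 70 carried hashtags of more than 1 mouse, and 128 had no assignment. In B2m-null isotype replicate 1 hashtags assigned 22.6% of all barcodes, against 61.1% to 90.9% in the other lanes. Tests between groups used UMIs summed per mouse over assigned members, in mice with at least 10 of them. This left 5 isotype and 2 CD40 mice with control tumours, and 3 isotype and 4 CD40 mice with B2m-null tumours, each with 14 to 303 members. A single mouse of B2m-null isotype replicate 1 was among them. The barcode sequence of 44 members also occurred in another lane, and none of these was a member there.

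The gate was checked against Cd40lg, the gene of CD40 ligand, which was not part of the rule. A Cd40lg UMI was found in 5.37% to 14.8% of members by lane, in 0.23% to 0.75% of CD8 T cells and in at most 0.02% of C1q-high barcodes without T cell UMIs. Among the 256 Foxp3-positive CD4 T cells 6 had one (2.34%), or 0% to 16.7% by lane with 1 to 89 cells each, and Cd40lg was too low to be tested between the 2 CD4 sets. It therefore checks the gate against CD8 and myeloid cells, not against regulatory T cells. Those myeloid barcodes had a median of 3822.5 to 9273 UMIs and the CD8 T cells of 1771 to 4739. CD8 T cells were shallower than the members in 2 lanes, with a median of 2960 against 3888.5 UMIs in B2m-null isotype replicate 1 and 2721 against 2964 in B2m-null CD40 replicate 1. Cd3e belongs to the sum of T cell UMIs that the rule used, so its detection is only a description. It was seen in 44.1% to 64.9% of members and in 60.2% to 74.8% of CD8 T cells. The plot of marker detection by cell set shows these shares lane by lane. Values near the limits of the rule were common. Of the members, 848 or 63.4% had exactly 1 Cd4 UMI, 118 or 8.82% had exactly 2 T cell UMIs, and 37 had 3 to 5 C1q UMIs. Just outside, with the rest of the rule met, lay 5265 barcodes without a Cd4 UMI, 128 with 1 T cell UMI, 155 with 1 Cd8 UMI, 142 with 1 Foxp3 UMI, 31 with an Ncr1 UMI and 224 with 6 or more C1q UMIs.

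**Figure D1:**
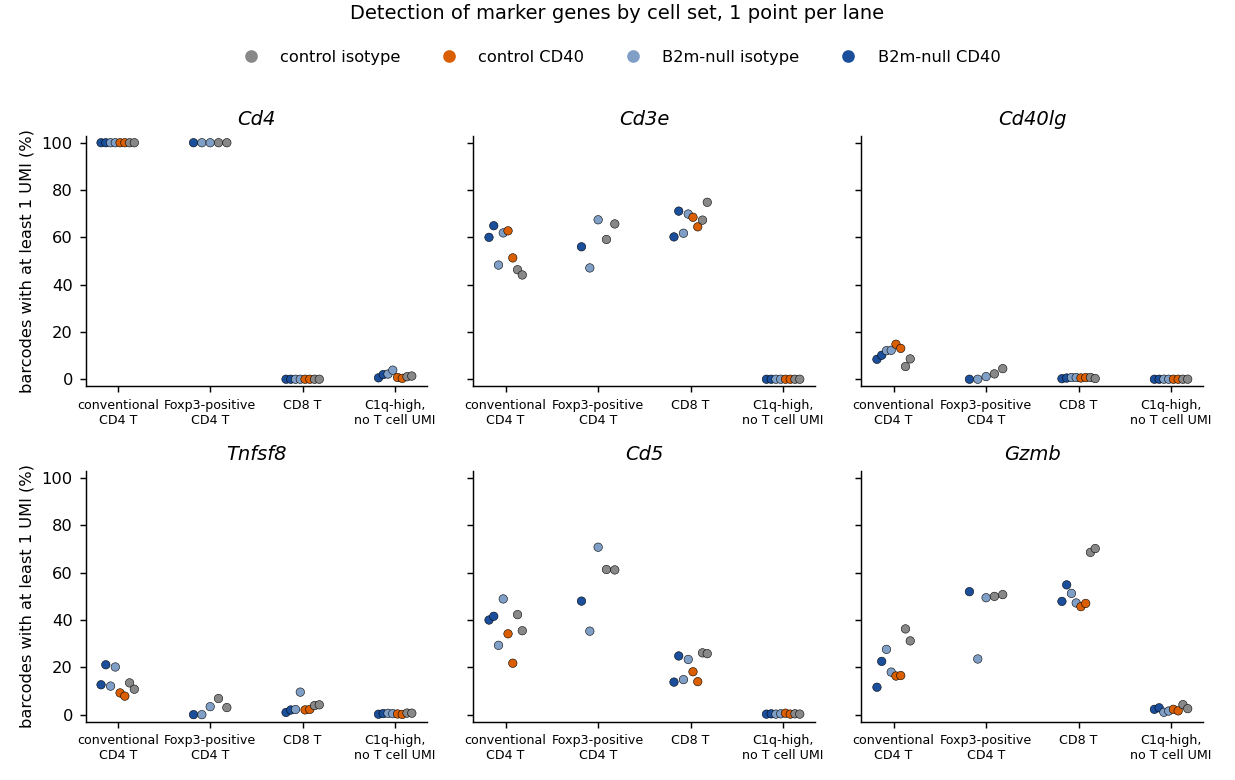
Share of barcodes with at least 1 UMI (vertical axis, percent) of 6 genes in 4 cell sets (horizontal axis), with 1 point per lane that holds at least 15 such barcodes, coloured by group. Cd4 is at 100% in both Cd4 sets because the rule requires it, Cd3e reaches 44.1% to 64.9% of the conventional CD4 T cells, and Cd40lg reaches 5.37% to 14.8% of them against at most 0.75% of CD8 T cells and at most 0.02% of C1q-high barcodes.

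Many gated barcodes also carried transcripts of antigen-presenting cells, and this differed between the treatments. More than 2 UMIs of the MHC class II genes H2-Aa, H2-Ab1 and H2-Eb1 together were found in 39.7% of members in control isotype, 14.5% in control CD40, 44.7% in B2m-null isotype and 9.52% in B2m-null CD40. A UMI of a dendritic cell marker was found in 24.4%, 3.22%, 29.9% and 2.89% in the same order. The barcodes with more than 50 MHC class II UMIs, at 17.8%, 2.89%, 20.8% and 2.04%, had a median of 7105 to 10498 UMIs by group. C1q UMIs were found in 24.4% to 31.0% of members by group, but the rule caps them at 5, so they cannot show whether macrophage transcripts differed. More than 2 UMIs of Lyz2, a myeloid gene that the rule does not use, were found in 19.4%, 11.3%, 26.9% and 7.48% in the same order. Members with at most 2 UMIs each of MHC class II, Lyz2 and collagen and with no C1q UMI, called low-mixture below, numbered 110 in control isotype, 203 in control CD40, 79 in B2m-null isotype and 387 in B2m-null CD40. Their median UMI count by group was 1492 to 2350. These barcodes still carried transcripts of other cells, and not evenly. Summed per pool, the 7 dendritic cell markers stood at 280 and 1776 CPM in B2m-null isotype against 50.2 and 67.8 in B2m-null CD40, with Xcr1 and Clec9a at 0 in all 4 pools. In control tumours they stood at 38.5 and 202 CPM in isotype and 60.9 in CD40. The 4 melanoma markers summed to 677 CPM in control CD40 and to at most 23.4 CPM in every other pool. The part of these transcripts in the results below was not tested. The 11 T lineage genes, some of them used by the rule, also stood higher in sum under CD40. By mouse they summed to 3198 to 3868 CPM in control isotype and 4995 to 5040 in control CD40. In B2m-null tumours this was 2283 to 3518 under isotype and 4381 to 7826 under CD40. In low-mixture pools it was 4957 to 5223, 6798, 3598 to 4863 and 5121 to 8374 CPM in that order. The part of this T cell content in the changes below was not tested either. Gene comparisons between treatments are therefore also given for low-mixture members, a subset that was defined after seeing the data and is left with 13 mice of at least 5 such cells. In every comparison below, low-mixture barcodes are part of those on which the genes were called. A shared direction or a repeated call is therefore no independent support.

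**Figure D2:**
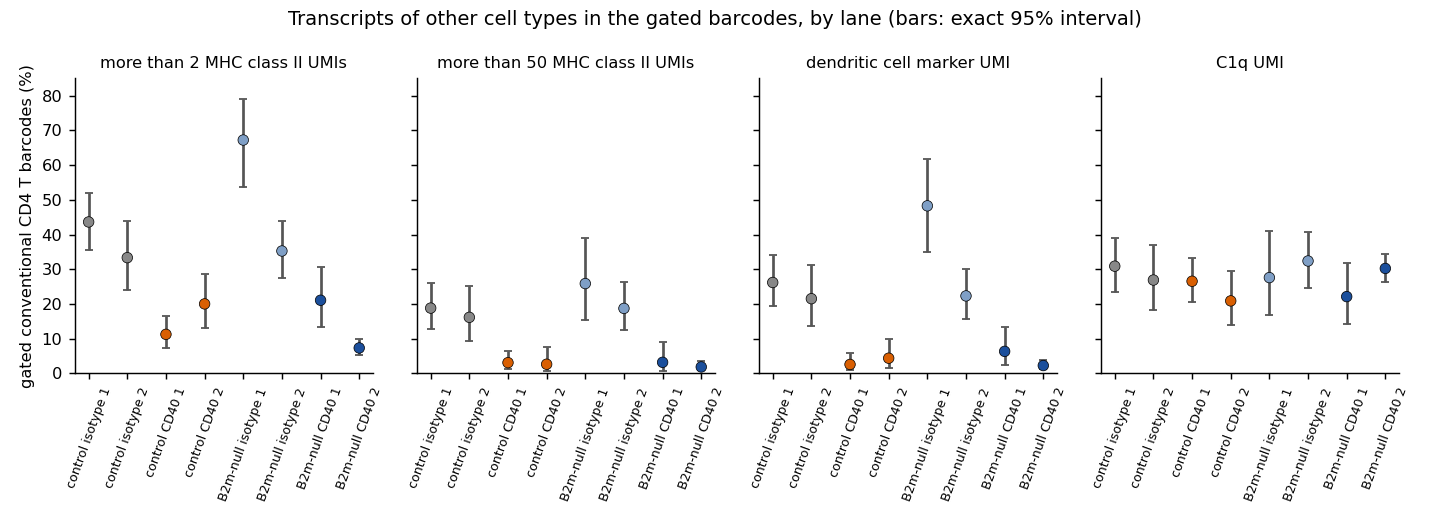
Share of gated conventional CD4 T barcodes (vertical axis, percent) that carry transcripts of other cell types, 1 point per lane with its exact 95% binomial interval, which covers counting error only. Both isotype groups lie above both CD40 groups for MHC class II and dendritic cell transcripts, while C1q transcripts lie between 20.9% and 32.4% in all 8 lanes.

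Transcripts of regulatory T cell genes remained among cells gated as Foxp3-negative, and their sum, which was not tested, lay lower in the CD40 mice. Of its 4 tested genes Ikzf2 alone was called between treatments, as given below for each tumour genotype. The summed level of the regulatory T list (Foxp3, Il2ra, Ikzf2, Lrrc32, Ccr8, Izumo1r and Capg) ranged from 1136 to 1809 CPM over the control isotype mice and from 516 to 618 CPM in control CD40. In B2m-null isotype it ranged from 1110 to 1203 CPM, and in B2m-null CD40 from 464 to 966 CPM. Foxp3 is at 0 by the rule, and the other 6 genes were detected in every group. In low-mixture members, summed per pool, the list stood at 1484 to 1577 CPM in control isotype, 691 in control CD40, 1653 to 1846 in B2m-null isotype and 438 to 577 in B2m-null CD40. A UMI of Il2ra, the high-affinity interleukin-2 receptor chain, or of Ikzf2, the transcription factor Helios, was also counted by cell. It was found in 63.2% of control isotype members, 37.9% of control CD40, 60.9% of B2m-null isotype and 28.9% of B2m-null CD40 members. CD8 T cells showed it too, by lane in 60.1% and 61.6% in control isotype and in 29.8% and 27.5% in control CD40. In B2m-null tumours these CD8 shares were 47.7% and 51.2% under isotype and 33.2% and 24.8% under CD40. Such UMIs therefore do not single out regulatory T cells, and their lower share under CD40 was not particular to CD4 T cells. Natural killer cell markers stayed at or below 55.0 CPM in sum in every mouse, with Ncr1 at 0 by the rule, and gamma-delta T cell markers at or below 61.1 CPM.

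No share of conventional CD4 T cells differed between treatments by more than the mice allowed to be told. Their share of kept cells was 0.970% ± 0.268 (SD, n = 5) in control isotype and 1.37% ± 0.483 (n = 2) in control CD40, with overlap (exact two-sided permutation p = 0.381, adjusted p = 0.571). In B2m-null tumours the share was 0.642% ± 0.655 (n = 5) under isotype and 2.69% ± 1.99 (n = 4) under CD40 (exact p = 0.0952, adjusted p = 0.533). The 4 CD40 mice fell apart by lane, with 0.815% and 1.14% in replicate 1 and 4.55% and 4.26% in replicate 2. Of the 5 B2m-null isotype mice, 2 from the poorly hashtagged lane held 0 and 1 members among 325 and 357 kept cells, and the exact 95% binomial interval of the 0 reaches 1.13%, which covers counting error only. Among T cells the share was 5.47% ± 1.31 and 3.46% ± 1.59 in control tumours and 5.23% ± 3.47 and 6.96% ± 3.13 in B2m-null tumours, isotype before CD40, with overlap in both.

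The Foxp3-free part of the Cd4-positive, Cd8-negative T cells did not overlap between the control groups, and the difference in percentage points was smaller in thinned cells. It was 67.1% ± 10.8 (SD, n = 5) in control isotype, where it ranged from 52.0% to 80.3%. Both control CD40 mice lay above that range, at 97.3% and 98.4% (exact p = 0.0952, the smallest that 5 against 2 mice allow, adjusted p = 0.533). In B2m-null tumours it was 59.2% ± 39.3 (n = 5) under isotype and 93.02% ± 5.78 (n = 4) under CD40, with overlap (exact p = 0.143, adjusted p = 0.533). The isotype spread there includes values of 0 and 100% from the mice with 2 and 1 such cells. Between tumour genotypes no share passed the threshold under isotype, while under CD40 4 against 2 mice cannot give a p below 0.133, so those 3 tests could not have passed. The smallest adjusted p over the 12 share tests was 0.533, and 6 of the 12 could not fall under 0.05. The rest had a smallest possible p of 0.00794 or 0.0159, so after adjustment none of them could pass alone. Foxp3 detection depends on depth, and members had a median of 3088 UMIs in control isotype and 1707 in control CD40. Cells with at least 1000 UMIs were then thinned to 1000, and shallower cells were left out. The Foxp3-free share became 80% to 94.1% in control isotype and 99.2% and 100% in control CD40. It rested on 3, 1, 1, 5 and 1 Foxp3-positive cells in the isotype mice and on 1 and 0 in the CD40 mice. The groups still did not overlap, but the difference fell to 12.2 from 30.7 percentage points (exact p = 0.0952, adjusted p = 0.400). Thinned cells show Foxp3 less often, and both means moved towards 100%, from 67.1% to 87.4% and from 97.8% to 99.6%, isotype before CD40. The fall in percentage points therefore does not show that the groups came closer. In B2m-null tumours the thinned shares were 100%, 97.8% and 75.0% under isotype, from mice with 2, 44 and 3 Foxp3-free cells, and the other 2 mice kept no such cell. Under CD40 they were 85.7% to 98.9%, and the difference fell to 3.34 from 33.8 percentage points (exact p = 0.743, adjusted p = 0.857). With low-mixture members the smallest adjusted p over the same 12 share tests was 0.254.

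**Figure D3:**
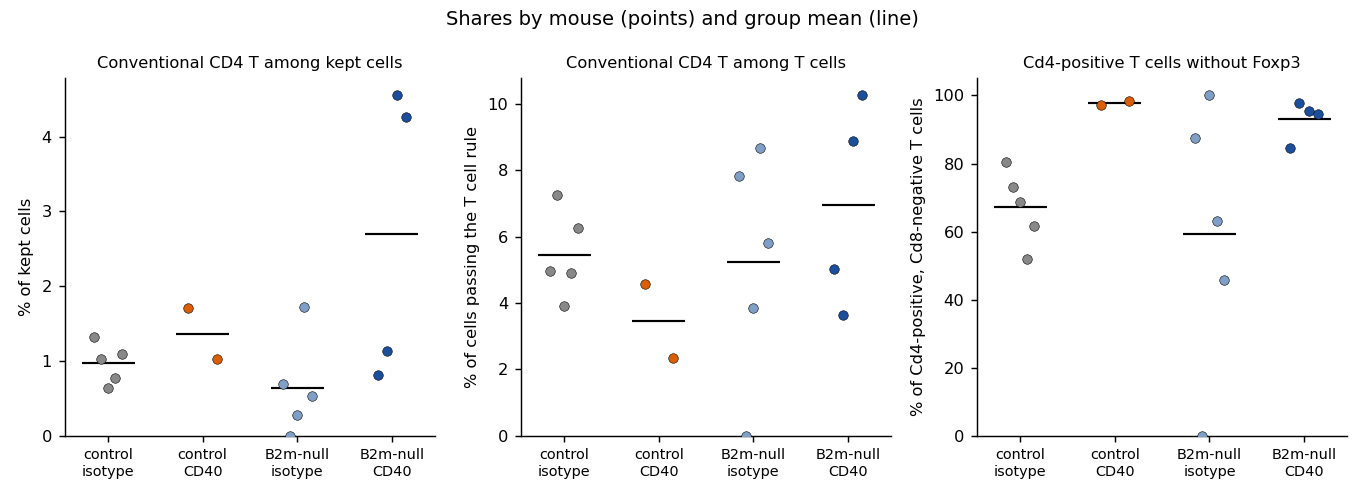
Shares per mouse (points, vertical axes in percent) with the group mean (line): conventional CD4 T cells among kept cells, among cells passing the T cell rule, and the Foxp3-free part of Cd4-positive, Cd8-negative T cells. Points are mice with at least 100 kept cells, and the 2 control CD40 mice, at 97.3% and 98.4% Foxp3-free, lie above all 5 control isotype mice, which reach 80.3%.

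Against CD8 T cells of the same pools, conventional CD4 T cells expressed more helper ligands and receptors and less of the cytotoxic programme. UMIs were summed per pool and cell set and tested with the pool as a block, leaving out the 12 genes of the rule. Of 8588 genes, 576 were higher (6.71%) and 455 lower (5.3%), 1031 in all (12%), at an edgeR adjusted p under 0.05, which is what "called" means throughout. Cd40lg stood at 30.9 ± 17.1 CPM (SD, n = 7 pools) in conventional CD4 T cells and at 1.47 ± 0.712 CPM in CD8 T cells, higher in 7 of 7 pools (log2 fold change 4.40 ± 0.24, SE, edgeR adjusted p = 1.97e-07). The other tumour necrosis factor ligands in the lead were Tnfsf8, the ligand of CD30, at 62.5 ± 34.1 against 8.81 ± 4.64 CPM, and Tnfsf11, the ligand RANKL, at 52.03 ± 22.7 against 9.10 ± 5.33 CPM. Of the 10 genes of the tumour necrosis factor superfamily list, 9 were tested, 6 were higher, and 2, Cd27 and the death ligand gene Fasl, were lower. The list's median log2 difference was 1.23, against -0.01 over all genes.

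Some type 2 and follicular helper genes were also higher in conventional CD4 T cells. Both tested genes of the T helper 2 list were higher, Gata3, its transcription factor, by 1.49 ± 0.17 and Il1rl1, the receptor of interleukin-33, by 2.63 ± 0.30 on the log2 scale. Il4, Il5, Il13 and Ccr4 were too low to be tested, as were all 6 genes of the T helper 17 list in the comparisons between treatments. Of 6 tested follicular helper genes Bcl6, Icos and Maf were higher and Sh2d1a lower, and Maf, a transcription factor, stood at 263 ± 77.6 against 64.5 ± 19.1 CPM. Areg, the growth factor amphiregulin, was higher by 3.17 ± 0.38. All 10 genes of the cytotoxic list were lower, with a median of -2.08. Gzmb, which encodes granzyme B, stood at 182 ± 102.8 against 950.0 ± 415 CPM (log2 fold change -2.43 ± 0.10, edgeR adjusted p = 1.67e-08), and Eomes, a transcription factor of cytotoxic cells, at 7.24 ± 3.58 against 78.3 ± 20.8 CPM. Of 13 cell cycle genes 7 were lower and none was higher, with a median of -0.53. All 3 Ifitm genes, which interferon induces, were higher, with a median of 1.30. Of 10 genes of the dissociation and heat shock list Fos, Fosb, Jun, Junb, Atf3 and Dusp1 were higher and none was lower, with a median of 0.60 against -0.01 over all genes. These are genes that tissue dissociation can induce and T cell signalling also induces, and their part in the other differences from CD8 T cells was not tested.

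Between low-mixture barcodes of both sets, 804 of the 1031 called genes were tested, 802 of these had the same direction and 369 were called again. Cd40lg differed by 4.32 and Gzmb by -2.31 on the log2 scale there. The count of 1031 fell to 575 without control isotype replicate 1 and to 477 without B2m-null isotype replicate 2. With barcodes of at least 1000 UMIs thinned to 1000, it was 510 of 5231 genes tested.

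Against Foxp3-positive CD4 T cells of the same pools, fewer genes differed: 52 of 5466 were higher in conventional CD4 T cells (0.951%) and 15 lower (0.274%), 67 in all (1.23%). The Foxp3-positive set held 7 to 89 cells per pool. In the 5 pools with at least 10 such cells, a choice made after seeing the data, 50 genes were called, and among named genes the calls of Bcl2, Il18rap, Il1rl1, Klf2, S100a4, Sh2d1a, Arl5a, Bmyc and Gimap7 were lost (edgeR adjusted p from 0.0524 to 0.125). Cxcr6, a chemokine receptor of tissue T cells, stood at 435 ± 418 CPM (SD, n = 7 pools) in conventional and 62.7 ± 65.2 CPM in Foxp3-positive cells, higher in 7 of 7 pools (log2 fold change 2.40 ± 0.23, edgeR adjusted p = 5.29e-07). Ifng, the interferon-gamma gene, was higher by 1.91 ± 0.31 and Tnfsf8 by 3.39 ± 0.40. Tcf7, a transcription factor of naive and memory T cells, was higher by 1.91 ± 0.30 and the survival gene Bcl2 by 1.33 ± 0.32. Ikzf2 stood at 393 ± 240.1 CPM in conventional and 1151 ± 242 CPM in Foxp3-positive cells, lower in 7 of 7 pools (log2 fold change -1.68 ± 0.26, edgeR adjusted p = 0.00047). Other regulatory T cell genes lay on the same side, with Ctla4, an inhibitory receptor, at -1.10, Izumo1r at -1.13, Il2ra at -0.98, Tnfrsf4 at -0.91 and Tnfrsf9 at -1.12 on the log2 scale. Levels of Ikzf2 and Il2ra were lower in conventional CD4 T cells but not near 0. Among low-mixture barcodes 34 of the 67 called genes were tested, all 34 had the same direction and 28 were called again. The count of 67 became 39 without control isotype replicate 2, 26 without B2m-null isotype replicate 2 and 108 without control CD40 replicate 1.

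In control tumours, conventional CD4 T cells under anti-CD40 had more Ifng, the interferon-gamma gene, and more of the receptor genes Cxcr6, Il18r1 and Il18rap. Over 4735 genes tested, 124 were higher (2.62%) and 90 lower (1.9%) under CD40, 214 in all (4.52%). Normalised CPM of Ifng (ENSMUSG00000055170) were 57.6, 33.8, 21.96, 39.3 and 16.9 in the 5 control isotype mice and 552 and 667 in the 2 control CD40 mice. Both CD40 mice lay far above all isotype mice, with a log2 fold change of 4.08 ± 0.33 (SE, edgeR adjusted p = 1.42e-07). Counted by cell, an Ifng UMI was found in 12.1% and 8.60% of control isotype members by lane and in 40.8% and 48.7% of control CD40 members, against 0.41% to 1.26% of C1q-high barcodes. After thinning to 1000 UMIs per barcode, a depth that 136 and 79 isotype and 180 and 82 CD40 members reached, these shares were 4.41% and 1.27% against 29.4% and 36.6%.

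Cxcr6 stood at 154, 176, 87.8, 229 and 158 CPM in control isotype and at 890.0 and 869 CPM in control CD40, without overlap (log2 fold change 2.42 ± 0.41, edgeR adjusted p = 0.00141). The call was lost without control isotype replicate 1, with a log2 fold change of 2.25. Both chains of the interleukin-18 receptor rose. Il18r1 went from 33.6, 87.99, 98.8, 65.6 and 78.9 CPM to 345 and 296 CPM and Il18rap from 47.995, 87.99, 32.9, 59.000 and 56.3 CPM to 199 and 246 CPM. The groups did not overlap in either gene, with log2 fold changes of 2.19 ± 0.33 and 1.95 ± 0.27 and edgeR adjusted p = 0.000444 and 0.000146. Csf1, the macrophage growth factor M-CSF, stood at 23.998, 13.5, 21.96, 39.3 and 0 CPM in isotype mice and 218 and 209.6 CPM in CD40 mice (log2 fold change 3.43 ± 0.41, edgeR adjusted p = 3.21e-05). It was higher in both CD40 mice than in any isotype mouse, which the rule for naming genes outside the lists requires.

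Of the 11 genes of the T helper 1 list, all tested, these 4, Ifng, Cxcr6, Il18r1 and Il18rap, rose and none fell. The list's median log2 fold change was 1.04, against -0.08 over all genes. Tbx21, the gene of T-bet, had 27.1 ± 6.77 CPM in control isotype and 24.2 ± 2.91 CPM in control CD40 (log2 fold change -0.18 ± 0.51, edgeR adjusted p = 0.903). Among 7 tested cytotoxic genes the granule genes Nkg7 and Ctsw rose, by 1.88 ± 0.25 and 1.57 ± 0.42, and Gzmb fell by 1.40 on the log2 scale, from 350.4, 453, 461, 341 and 265 to 116 and 159 CPM. Of 9 tested cytokine and chemokine genes Ifng, Il21 and Ccl3 rose. Il21, a cytokine of follicular helper cells, was at 4.80, 0, 0, 26.2 and 0 CPM in isotype mice and 101 and 66.5 CPM in CD40 mice (log2 fold change 3.59 ± 0.88, edgeR adjusted p = 0.0229). Ccl3, a chemokine for myeloid cells, was at 134, 6.77, 253, 85.2 and 73.2 and 116 and 859 CPM. One CD40 mouse lay inside the isotype range, and without the other the log2 fold change was 0.24.

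Cd40lg itself was higher in control CD40, at 63.8 and 72.6 CPM against 14.4, 27.1, 0, 32.8 and 22.5 CPM in isotype mice (log2 fold change 1.72 ± 0.48, edgeR adjusted p = 0.0413). The groups did not overlap, but the call was lost with DESeq2 and on leaving out any 1 of the 4 control lanes or either CD40 mouse, with log2 fold changes of 1.38 to 2.16. Of 9 tested tumour necrosis factor superfamily genes, Cd40lg and Fasl rose and none fell. Rgs16, a brake on G protein signalling in activated T cells, rose from 57.6, 13.5, 43.9, 26.2 and 5.63 to 161 and 284 CPM (log2 fold change 2.93 ± 0.50, edgeR adjusted p = 0.00141). Both CD40 mice were above all isotype mice. The calcium-binding migration genes S100a4 and S100a6 rose by 1.29 ± 0.32 and 1.36 ± 0.31, S100a4 from 1646, 1421, 1559, 1606 and 1296 to 3909 and 3475 CPM. Leaving out either control isotype lane or the first CD40 mouse ended both of these calls.

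**Figure D4:**
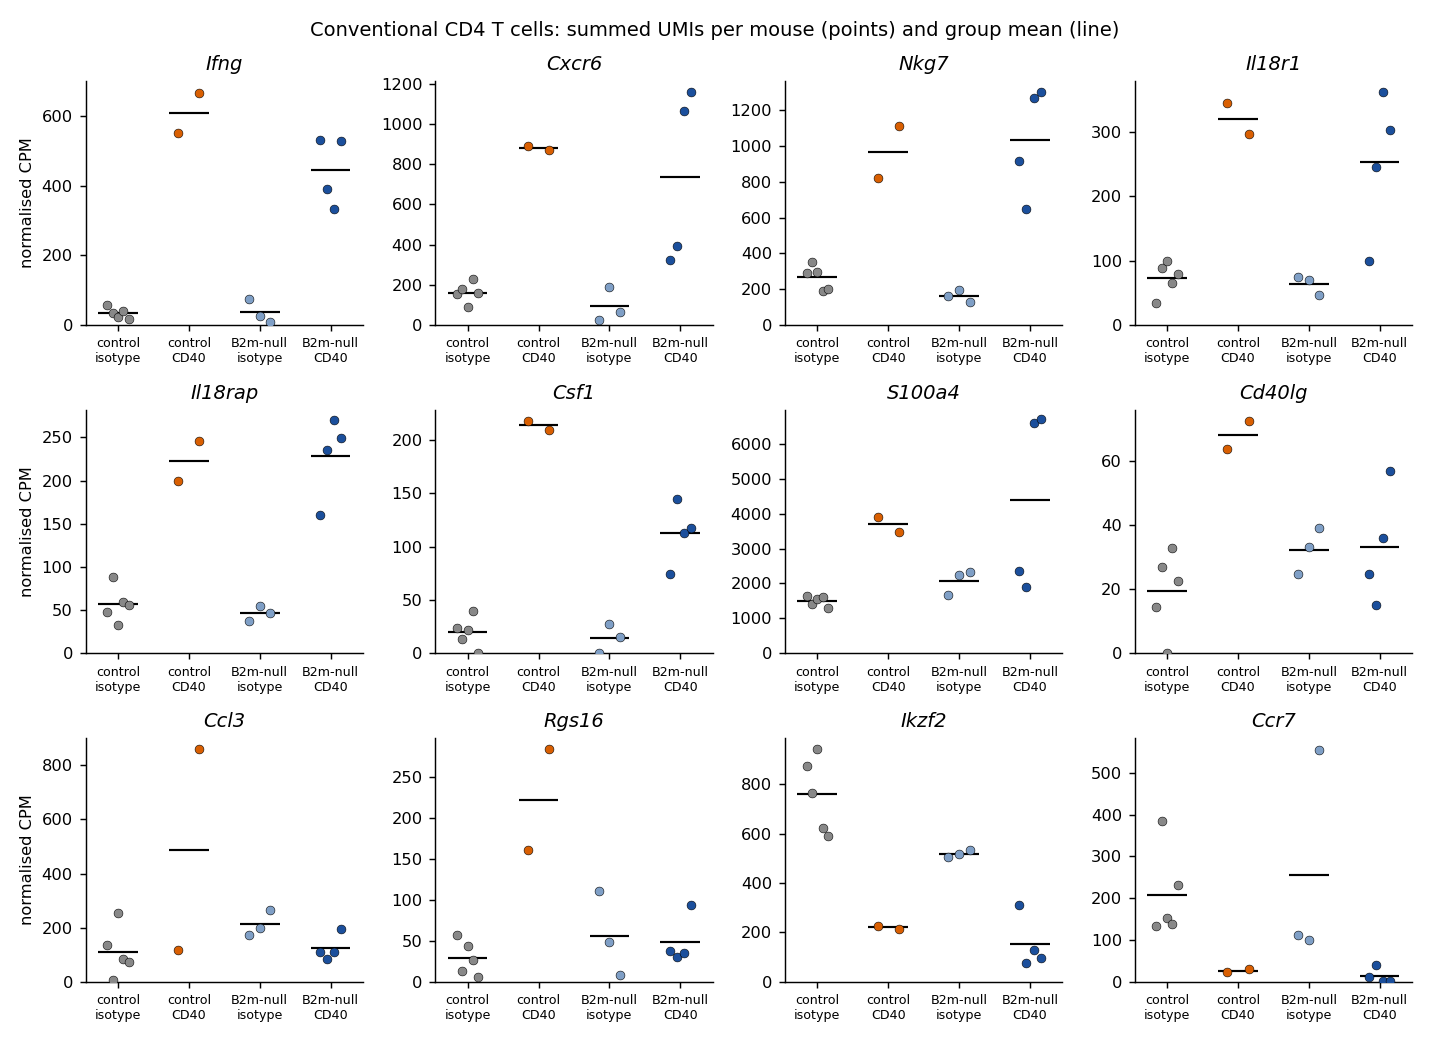
Normalised CPM (vertical axes, from 0) of 12 genes in conventional CD4 T cells, 1 point per mouse and a line at the group mean, for 5 isotype and 2 CD40 mice with control tumours and 3 isotype and 4 CD40 mice with B2m-null tumours. Ifng lies between 332 and 667 CPM in all 6 CD40 mice and at or below 74.2 CPM in all 8 isotype mice, while Rgs16 and Cd40lg are high in the 2 control CD40 mice and overlap between treatments in B2m-null tumours.

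Of the regulatory T list Ikzf2 was called in control tumours, while Il2ra, Izumo1r and Capg differed by -0.95, -1.61 and -0.63 on the log2 scale and were not called (edgeR adjusted p = 0.159, 0.241 and 0.126). Foxp3 is at 0 by the rule. Ikzf2 fell from 874, 765, 944, 623 and 591 to 225 and 216 CPM, without overlap (log2 fold change -1.78 ± 0.32, edgeR adjusted p = 0.00207). Ccr7, a homing receptor of naive T cells that mature dendritic cells also make, fell by 2.92 on the log2 scale, and none of the tested naive and memory genes rose. Itgae, an integrin chain that resident T cells and a dendritic cell subset make, fell by 2.78. Of 9 tested type I interferon genes Isg15 and Isg20 fell, by 2.08 and 2.54, with a list median of -1.17, and Isg15 went from 182, 156, 187, 138 and 259 to 30.04 and 52.4 CPM. None of the tested genes of the cell cycle (13), glycolysis (10), interferon-gamma GTPase (8), inhibitory receptor (7), cytokine receptor (12), T cell receptor response (8) and Ifitm (3) lists was called.

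The largest changes in control tumours were in genes that T cells are not known for. Col1a1, a fibrillar collagen, was at 0, 0, 0, 6.56 and 0 CPM in isotype mice and 259 and 266 CPM in CD40 mice, and Col1a2, Col3a1, Sparc, Bgn, Fstl1 and Serpinh1, all of fibroblasts and matrix, behaved alike, as did Saa3 and Serping1. Of the 930 collagen UMIs in control CD40 members 927 sat in 4 barcodes, 3 of which were assigned to a mouse with 155 to 370 UMIs each. In the other groups the barcodes rich in collagen were not assigned to a mouse and so entered no sum per mouse. Sums per pool hold them, with 855 collagen UMIs in 1 barcode of control isotype, and 1132 and 377 in 1 barcode each of the isotype and CD40 groups with B2m-null tumours. The summed fibroblast and endothelial markers were 529 and 1758 CPM in the control CD40 mice and at most 105 CPM in any other mouse. Melanoma markers were 15.3 and 2192 CPM in control CD40 and at most 38.7 CPM elsewhere. Genes of dendritic cells were among those that fell most. Cd209a, a lectin of dendritic cells, fell from 14.4, 54.1, 165, 78.7 and 124 to 0 and 4.03 CPM, and Napsa, Wdfy4, Olfm1, Pkib, Rnase6 and Ccl22 fell with it. Summed dendritic cell markers were 1831 to 3038 CPM in control isotype and 661 to 710 CPM in control CD40.

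Restricted to low-mixture members, 2044 genes were tested, and the collagen genes, Cd209a, Napsa and Wdfy4 were too low to be among them. Cd40lg, Il21, Fasl, Tbx21, Itgae, Isg15 and Isg20 were also too low there by mouse. Summed per pool, where control CD40 is a single pool, low-mixture members gave log2 fold changes of 1.29 for Cd40lg, 2.19 for Il21, 1.87 for Fasl, 0.028 for Tbx21, -1.40 for Isg15 and -3.06 for Isg20, none of them called (edgeR adjusted p from 0.250 to 0.999). By lane, Cd40lg was at 31.5 and 38.5 CPM in low-mixture members of control isotype and at 69.6 and 109 CPM in the 2 control CD40 lanes. Of the 214 genes called in control tumours 127 were tested there, 125 had the same direction and 49 were called again, 41 higher and 8 lower. In all 61 were called. Ifng differed by 3.35 (edgeR adjusted p = 0.000215), Cxcr6 by 2.17, Il18r1 by 1.90, Il18rap by 1.54, Nkg7 by 1.69, Csf1 by 2.87 and Rgs16 by 2.55 on the log2 scale, and all of these were called by mouse, while Nkg7, at 1.67 summed per pool, was not (edgeR adjusted p = 0.0655). Ikzf2 at -1.45, Ccr7 at -1.89 and Gzmb at -1.01 were no longer called. In members without a UMI of Il2ra or Ikzf2, a subset also chosen after seeing the data, 28 genes were called, and Ifng differed by 2.75 (edgeR adjusted p = 0.00943), Cxcr6 by 1.94 and Nkg7 by 1.89. The part that regulatory T cells and mixed barcodes have in these changes was not tested. With the pool as unit control CD40 is 1 sample with no spread of its own, and the fit takes its spread from the other groups, so that fit is no independent support for a call. Under that assumption Ifng, Cxcr6, Il18r1, Il18rap, Csf1 and Rgs16 were called and Nkg7, at 1.93, was not (edgeR adjusted p = 0.0653). A stricter gate held 20 and 8 cells in the control isotype lanes and 25 and 22 in the control CD40 lanes. It used mice with at least 5 such cells and left 8 calls. Ifng at 4.65 and Rgs16 at 4.86 stayed called, and Cxcr6, Il18r1, Il18rap, Nkg7 and Csf1, at 1.74 to 3.01, did not (edgeR adjusted p from 0.109 to 0.316). The calls of Ifng, Il18r1, Il18rap, Nkg7 and Csf1 held with any 1 lane or mouse left out. Those of Il21, Ctsw, Gzmb, Fasl, Furin, Ms4a4b, Ccr7, Itgae and Isg20 were lost without control isotype replicate 1 and without either control CD40 mouse. Rgs16 was lost without the second CD40 mouse, Ikzf2 without that mouse or control isotype replicate 1, Isg15 without the first CD40 mouse or that lane, and Ccl3 without either isotype lane. The count of 214 was 48 without control isotype replicate 1, 133 without replicate 2, 125 without control CD40 replicate 1 and 85 or 76 without 1 or the other control CD40 mouse. It rose to 393 and 329 without B2m-null CD40 replicate 1 or 2, whose spread enters the same fit.

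**Figure D5:**
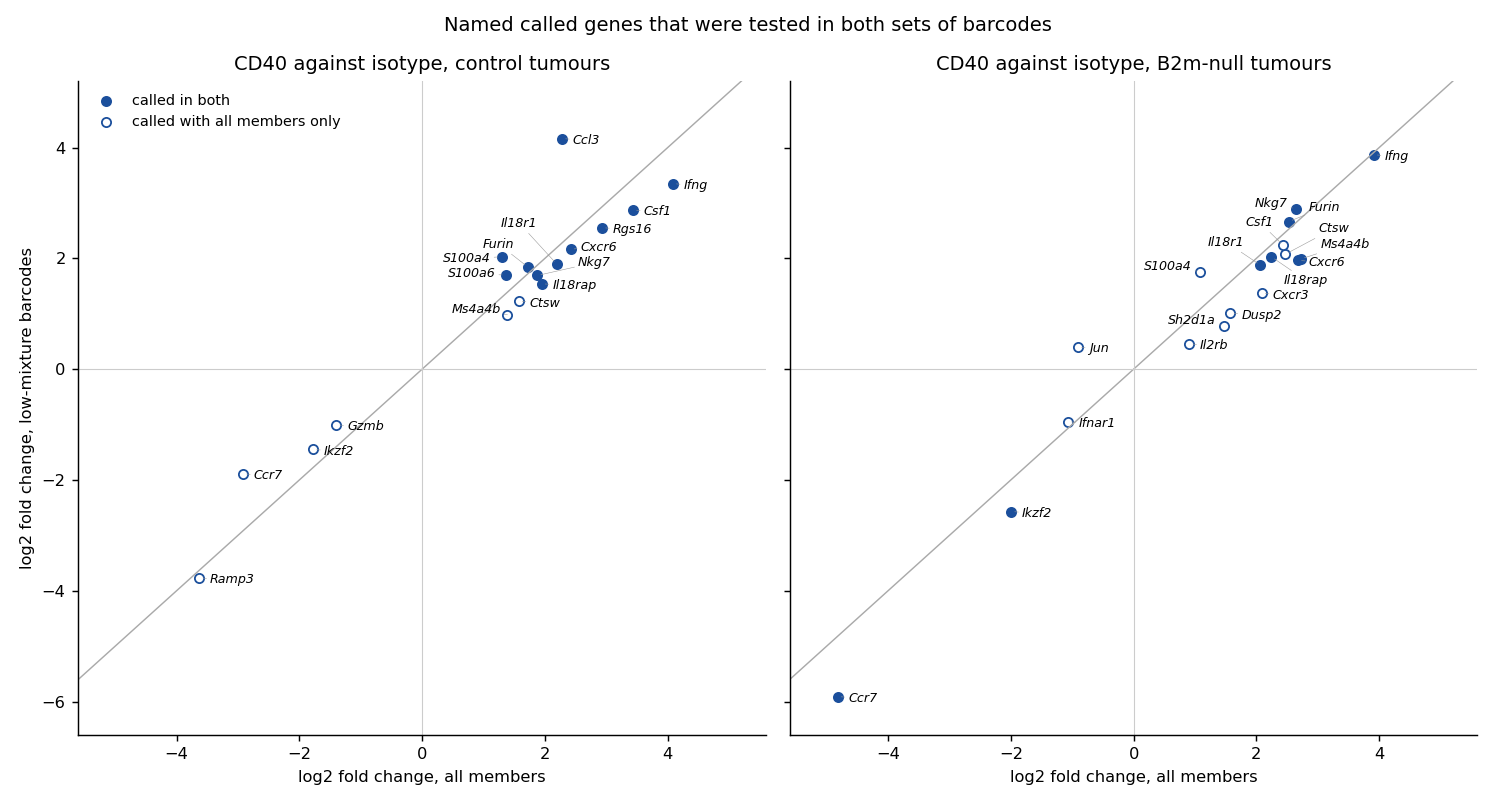
Log2 fold change of CD40 against isotype in low-mixture members (vertical axis) against that in all members (horizontal axis) for the named genes called with all members and tested in both, in control (left) and B2m-null (right) tumours; the grey diagonal marks equal values. Ifng lies at 4.08 and 3.35 in control tumours and at 3.91 and 3.87 in B2m-null tumours, and Jun is the gene with opposite signs.

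In B2m-null tumours Ifng, Cxcr6, Il18r1, Il18rap and Nkg7 were again higher under anti-CD40, and 7 genes of the T helper 1 list were called. Of 4735 genes 143 were higher (3.02%) and 241 lower (5.09%), 384 in all (8.11%). The 2 treatment comparisons share no mouse. In the 3 isotype mice Ifng stood at 74.2, 25.4 and 7.83 CPM, and in the 4 CD40 mice at 531, 390.1, 332 and 529 CPM. The groups did not overlap, with a log2 fold change of 3.91 ± 0.39 (edgeR adjusted p = 4.47e-06). An Ifng UMI was found in 10.3% and 10.8% of B2m-null isotype members by lane and in 52.6% and 38.5% of B2m-null CD40 members, and in 3.64%, 2.24%, 27.3% and 23.5% after thinning.

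Cxcr6 rose from 24.7, 189.6 and 62.6 CPM to 321, 395, 1066 and 1158 CPM (log2 fold change 2.68 ± 0.45, edgeR adjusted p = 0.000676). All 4 CD40 mice were above the isotype mice, and those of replicate 2, the last 2 values, were the highest. Without that lane the log2 fold change was 1.55 and still called. Nkg7 rose from 161, 195 and 125 to 914, 650.2, 1269 and 1304 CPM (log2 fold change 2.64 ± 0.28, edgeR adjusted p = 5.54e-06), without overlap. Il18r1 and Il18rap rose by 2.06 ± 0.35 and 2.25 ± 0.28, and Csf1 by 2.44 ± 0.44. The convertase gene Furin, which T cell activation induces, rose from 24.7, 152 and 70.4 to 272, 775, 648 and 649 CPM (log2 fold change 2.53 ± 0.46, edgeR adjusted p = 0.00137). Ms4a4b, a membrane protein of effector T cells, rose by 2.73 ± 0.39. In control tumours Furin and Ms4a4b rose by 1.72 ± 0.46 and 1.39 ± 0.36.

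Of the 11 T helper 1 genes 7 rose and none fell, with a median of 2.06 against -0.01 over all genes. The 3 that had not been called in control tumours were Tbx21, the chemokine receptor gene Cxcr3 and Il12rb2, which encodes a chain of the interleukin-12 receptor. Tbx21 was at 0, 19.5 and 7.83 CPM under isotype and 37.1, 60.02, 42.8 and 74.3 CPM under CD40, without overlap (log2 fold change 1.93 ± 0.49, edgeR adjusted p = 0.017). Cxcr3 rose by 2.09 ± 0.49 and Il12rb2 by 2.32 ± 0.51. Calls of Cxcr3 and Il12rb2 were lost without B2m-null CD40 replicate 2 or B2m-null isotype replicate 2, and that of Tbx21 without the latter. Of 7 tested cytotoxic genes Prf1, the pore-forming perforin gene, Nkg7 and Ctsw rose and none fell. Prf1 was at 0, 5.86 and 0 and 74.1, 0, 83.002 and 54.6 CPM, with overlap. Fasl was at 0, 1.95 and 7.83 and 0, 25.01, 81.7 and 76.5 CPM, also with overlap (log2 fold change 4.18 ± 0.88, edgeR adjusted p = 0.00478). The adaptor gene Sh2d1a was the 1 called gene of 6 tested follicular helper genes. S100a4 rose by 1.08 ± 0.31, but from 1657, 2254 and 2339.9 to 2348, 1896, 6596 and 6710.3 CPM, so that replicate 1 mice overlapped with isotype mice. Without replicate 2 its log2 fold change was 0.0032.

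Cd40lg did not pass in B2m-null tumours, at 24.7, 33.2 and 39.1 CPM under isotype and 24.7, 15.004, 36.1 and 56.8 CPM under CD40 (log2 fold change 0.17 ± 0.46, edgeR adjusted p = 0.897). Neither did Rgs16, at 111, 48.9 and 7.83 and 37.1, 30.01, 34.8 and 93.96 CPM, nor Ccl3, Gzmb and Isg15. Ikzf2 fell from 507, 518 and 532 to 309, 75.02, 127 and 96.1 CPM, without overlap (log2 fold change -1.996 ± 0.30, edgeR adjusted p = 0.000219). Ccr7 fell from 111, 99.7 and 556 to 12.4, 40.01, 1.34 and 2.19 CPM (log2 fold change -4.82 ± 0.77), and it was the 1 called gene among 8 naive and memory genes. Of 12 tested cytokine receptor genes Il2rb rose by 0.91 ± 0.19, and Ifngr2, Ifnar1 and Il10ra fell by 4.29, 1.07 and 1.30. Ifngr2, a chain of the interferon-gamma receptor, was at 98.9, 44.96 and 54.8 CPM under isotype and 0, 0, 5.36 and 0 CPM under CD40. Among 8 tested T cell receptor response genes Nr4a3 and Egr2 fell and none rose. With the pool as unit Egr2 was at -1.55 and not called (edgeR adjusted p = 0.0784), and its call was also lost without either B2m-null isotype lane. Jun and Atf3 of the dissociation list fell by 0.91 and 1.91. In control tumours none of the 10 genes of that list was called. The cell cycle, glycolysis, interferon-gamma GTPase, inhibitory receptor, Ifitm and type I interferon lists held no called gene.

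Dendritic cell genes were again among those that fell most. Mgl2, a lectin of dendritic cells and macrophages, went from 198, 229 and 102 to 0, 0, 5.36 and 6.56 CPM (log2 fold change -5.17 ± 0.59, edgeR adjusted p = 1.35e-05). Cd209a, the chemokine gene Ccl22, Wdfy4, which acts in antigen cross-presentation, Olfm1 and Cd83 fell with it, by 3.26 to 5.10 on the log2 scale. Summed dendritic cell markers were 2442 to 4408 CPM in B2m-null isotype and 274 to 1369 CPM in B2m-null CD40. B cell markers summed to 136 to 617 against 34.4 to 75.3 CPM, and plasmacytoid dendritic cell markers to 43.3 to 165 against 0 to 2.60 CPM. In control tumours both sums overlapped between treatments. In low-mixture members of B2m-null tumours B cell markers were at 125 and 607 CPM in the isotype pools against 35.1 and 67.8 in the CD40 pools. None of these sums was tested. Among low-mixture members Mgl2, Cd209a, Ccl22, Wdfy4, Olfm1 and Cd83 were too low to be tested by mouse, and so were Tbx21, Il12rb2, Prf1, Fasl, Itgae, Ifngr2, Egr2, Nr4a3 and Atf3. Summed per pool, Tbx21 differed by 1.38, Il12rb2 by 2.36, Prf1 by 2.34 and Fasl by 2.56, none of them called (edgeR adjusted p from 0.140 to 0.505), and Ccl22 by -7.94 and called (edgeR adjusted p = 2.68e-05). Of the 384 called genes 182 were tested there, 178 had the same direction and 28 were called again, 14 higher and 14 lower, among 35 calls in all. Ifng at 3.87 (edgeR adjusted p = 0.00259), Nkg7 at 2.90, Ms4a4b at 1.99, Furin at 2.66, Il18rap at 2.03, Il18r1 at 1.88, Cxcr6 at 1.96, Ikzf2 at -2.57 and Ccr7 at -5.91 stayed called. Ccr7 moved there with the dendritic cell markers that remained, 280 and 1776 CPM in sum under isotype against 50.2 and 67.8 under CD40, and their part in its change was not tested. It was at 631 CPM in the 16 low-mixture members of B2m-null isotype replicate 1, at 130 in replicate 2 and at 5.02 and 3.70 CPM in the CD40 pools. Ctsw at 2.07, Cxcr3 at 1.37 and Il2rb at 0.46 did not, and Jun changed sign, to 0.40.

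In B2m-null members without a UMI of Il2ra or Ikzf2, Ifng differed by 2.42 (edgeR adjusted p = 0.143) and Nkg7 by 2.86 (adjusted p = 0.0251), among 28 calls of which 1 was higher. Cxcr6, at 2.02, was not called there (edgeR adjusted p = 0.147). The stricter gate held 1 cell in B2m-null isotype replicate 1 and 18 in replicate 2. With at least 5 cells needed per mouse, replicate 1 gave no isotype mouse to that fit. With the stricter gate, which left 13 calls, Cxcr6 at 4.07 stayed called in B2m-null tumours and Ifng, at 3.28, did not (edgeR adjusted p = 0.0924), nor did Il18r1, Il18rap, Nkg7 and Csf1. The calls of Ifng, Cxcr6, Il18rap, Nkg7, Furin, Ms4a4b, Ikzf2, Ifngr2 and Mgl2 held with any 1 lane or mouse left out. Without B2m-null isotype replicate 2 those of Il18r1, Csf1, Fasl, Ctsw, Prf1, Ccr7, Il2rb, Il10ra, Ifnar1 and Nr4a3 were lost. Without B2m-null CD40 replicate 2 those of Ctsw, Prf1, Sh2d1a, Ccr7, Atf3, Ifnar1, Il10ra and Nr4a3 were lost. The count of 384 was 101 without B2m-null isotype replicate 2, 138 without B2m-null CD40 replicate 2 and 761 without B2m-null CD40 replicate 1. It was 229 or 201 without 1 of the 2 mice of B2m-null CD40 replicate 2, and 224 or 223 without 1 of those of B2m-null isotype replicate 2.

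Between tumour genotypes conventional CD4 T cells differed in few genes. Under isotype 1 of 4735 genes was called (0.0211%), Mgl2, at 33.6, 6.77, 10.98, 0 and 50.7 CPM in control and 198, 229 and 102 CPM in B2m-null tumours. DESeq2 called 6 of the 1062 genes to which it gave an adjusted p. Of the 4735 genes 231 had an unadjusted edgeR p under 0.05, a threshold that about 1 in 20 genes pass by chance. Under CD40, 10 genes were higher in B2m-null tumours (0.211%) and 29 lower (0.612%), 39 in all (0.824%). The lower ones were led by Bgn, Col1a2, Col1a1, Fstl1 and Col3a1, the matrix genes of the few collagen-rich control CD40 barcodes. Rgs16 was lower, at 37.1, 30.01, 34.8 and 93.96 CPM in B2m-null CD40 against 161 and 284 CPM in control CD40, without overlap (log2 fold change -2.09 ± 0.44, edgeR adjusted p = 0.0203). It was also called among low-mixture members, at -2.25. On the higher side was Il1r2, the decoy receptor of interleukin-1, at 148, 175, 66.9 and 102.7 against 30.04 and 30.2 CPM (log2 fold change 1.86 ± 0.38, edgeR adjusted p = 0.0169). Clic1, Tagln2, Arhgdib and the proteasome gene Psmb3 were higher by 0.96 to 1.11. In low-mixture members Il1r2 differed by 1.55 and was not called (edgeR adjusted p = 0.22). With the pool as unit, where control CD40 is 1 pool and the spread comes from the other groups, none of the 10 higher genes was called and 11 genes were lower. Il1r2 was then at 1.90 (edgeR adjusted p = 0.280), and the calls of Clic1, Tagln2, Arhgdib and Psmb3 were lost too, as was that of Bgn. Rgs16 was at -2.43 there (edgeR adjusted p = 0.0499), a value that assumes that the single control CD40 pool varies like the other groups. The Mgl2 call under isotype was also lost with the pool as unit. The Il1r2 call was lost without control CD40 replicate 1 or either control CD40 mouse, that of Rgs16 without the second of them or 1 mouse of B2m-null CD40 replicate 2, and that of Mgl2 without either B2m-null isotype lane or control isotype replicate 1.

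The anti-CD40 effect itself was compared between genotypes with an interaction term. Of 4735 genes 12 had a larger log2 change in B2m-null tumours (0.253%) and 16 a smaller one (0.338%), 28 in all (0.591%). Neither Ifng, at -0.17 ± 0.59, nor Cxcr6, at 0.26 ± 0.62, was among them (edgeR adjusted p = 0.966 and 0.932). With an SE of this size the Ifng difference is not fixed to within 1 log2 unit, so the effects were not shown to be alike. Cd40lg, called under CD40 in control tumours only, had an interaction of -1.55 ± 0.68 (edgeR adjusted p = 0.353), so its change was not shown to differ, and Rgs16 had -2.83 ± 0.77 (edgeR adjusted p = 0.112). Of all list genes Egr2, a transcription factor of T cell receptor signalling, was called, at -4.02 ± 0.87 (edgeR adjusted p = 0.0393). Egr2 was at 14.4, 0, 10.98, 13.1 and 5.63 and 18.8 and 48.4 CPM in control isotype and control CD40 and at 74.2, 52.8 and 54.8 and 24.7, 5.001, 14.7 and 13.1 CPM in B2m-null isotype and B2m-null CD40. The 3 B2m-null isotype mice were thus above all other mice, and the 2 control CD40 mice were above the control isotype mice. Low-mixture members held too few of its UMIs for a test by mouse, and the call was lost on leaving out any 1 of the 4 isotype lanes or the second control CD40 mouse. With the pool as unit, again with 1 control CD40 pool, the Egr2 interaction was -2.89 (edgeR adjusted p = 0.314), and no interaction was called for any gene.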

How the data were processed

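The 8 lanes hold raw UMI counts for 32285 genes, made by the authors with Cell Ranger 3.0.0 and bcl2fastq 2.20.0.422 against mm10, per the submitters' processing notes, and the whole-number counts were used as deposited. Hashtag counts were deposited too. Barcodes were assigned to mice from them with a mixture model per hashtag, at a posterior of 0.9 and with at least 20 hashtag counts. The members, gene lists and tests were chosen with earlier results of these data known. Where the labels and the design text differ on the genotype, the design text was followed.

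UMIs of members were summed per mouse and fitted with edgeR 4.0.16 (quasi-likelihood test, TMM scaling, filterByExpr, all groups in 1 fit) in R 4.3.3. Adjusted p-values are Benjamini-Hochberg values over all genes tested. The 12 genes of the rule were left out of tests. Cell sets were compared per pool with the pool as a block. Sums per pool also hold barcodes without a hashtag assignment and those marked as hashtag doublets (128 and 70 of the members, 19 and 16 of the Foxp3-positive and 1295 and 675 of the CD8 T cells), and sums per mouse hold neither. Shares used an exact two-sided permutation test over mice with at least 100 kept cells, adjusted over 12 tests, in Python 3.11.15 with scipy 1.17.1. CPM are TMM-normalised. Fitted mice held 78941 to 770327 member UMIs, so genes under about 10 CPM rest on few UMIs. No label says whether mice shared a cage or day.

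Named genes were those with adjusted p under 0.05, at least 50 UMIs in the higher group and no overlap of mice, up to 10 in each direction by log2 fold change, plus called list members and up to 4 uncalled members per list. For cell sets the sign had to hold in all 7 pools. Ribosomal, mitochondrial and unnamed genes were not named, 1 gene that met the rule is not reported here, and the values given for a gene in a comparison that did not name it were chosen after seeing the data. Alternatives were RLE scaling, DESeq2 1.42.0, no filter, the pool as unit and at least 20 cells per mouse. In another, barcodes of at least 1000 UMIs were thinned to 1000 and shallower ones left out. The rest were a stricter gate (Cd4 at least 2, T cell UMIs at least 3, no C1q or Lyz2), a replicate block, and leaving out each lane and mouse. On simulated counts with 188 genes changed 4-fold among 4352, the fit recovered 62.8% in the comparison of treatments in control tumours, with 8 false calls, and 71.8% in B2m-null tumours, with 6. The simulation gave all genes the same spread and drew mice independently, without lane effects or mixed barcodes. Its false calls therefore do not measure those of the real data.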

Additional observations from a re-analysis of the deposited data

Results flagged for a closer look

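For 62 named genes in control isotype (5 mice) and B2m-null CD40 (4 mice), 124 groups of values were looked at. Of these, 17 had 1 mouse far from the others in normalised CPM. For normally distributed values chance gives about 1 in 20. A gene found in 1 mouse of a group and at 0 in the others is always flagged, so the 17 cannot be set against that rate. None of 9 groups of cell shares had a mouse far from the others. In B2m-null CD40, Ifnar1, a chain of the type I interferon receptor, was low in 1 mouse, at 12.4 CPM, which is 1 UMI, against 50.01 to 54.9 in the other 3. Cd83 was at 0 in 1 mouse and at 9.37 to 10.9 in the others. In the same group 1 mouse each was high in Rgs16 (93.96 CPM, others 30.01 to 37.1), Isg15 (140.6, others 69.9 to 75.02), Cd209a (49.4, others 0 to 4.02) and Pkib (35.01, others 0 to 2.19), the last 2 from 4 and 7 UMIs. Serping1 (24.1), Serpinh1 (10.7) and Ifngr2 (5.36) were each found in 1 B2m-null CD40 mouse, with 18, 8 and 4 UMIs, and at 0 in the others.

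In control isotype, Furin stood at 255.7 CPM in 1 mouse and at 43.9 to 78.9 in the other 4, Cd83 at 124.8 against 87.8 to 98.3, and Il21 at 26.2, from 4 UMIs, against 0 to 4.80. Col1a1 (6.56), Col3a1 (6.77), Serpinh1 (6.56), Saa3 (4.80) and Sparc (4.80) were each found in 1 control isotype mouse and at 0 in the others, each from 1 UMI.

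The anti-CD40 effect on Egr2 differed between the tumour genotypes in the edgeR interaction test, by -4.02 on the log2 scale (adjusted p = 0.039), and that call was lost in several of the fits that left out a lane or a mouse.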

How the results depend on the processing

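No comparison rests on more than 5 mice a group, control CD40 is 1 pool of 2 mice (with the pool as unit, or with 1 of its mice left out, the lone sample is assumed to vary like the other groups), and B2m-null isotype replicate 1 gave 1 fitted mouse. Genes with few UMIs, such as Il21, Cd40lg and Prf1, are limited by depth. The causes of the changes below were not tested, beyond the fewer cells or genes that a setting leaves.

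The counts of called genes follow by comparison, with each setting that moved one by over 1.5 times. RLE scaling moved none. Settings also changed how many genes were tested, so the counts are not parts of 1 total. Against 4735 in the main fits, 15335 were tested without a filter, 8767 with the pool as unit and 981 thinned. The stricter gate left 1969, cells without Il2ra or Ikzf2 4106, low-mixture barcodes 2044 and low-mixture by pool 5169. DESeq2 gave an adjusted p to 1062 genes between genotypes under isotype and to 788 under CD40 and for the interaction. The subsets without Il2ra or Ikzf2 UMIs and of low-mixture barcodes, by mouse and by pool, were added after seeing the data. The 214 calls between treatments in control tumours became 430 without a filter, 45 with the pool as unit, 89 thinned, 8 with the stricter gate, 28 without Il2ra or Ikzf2, 61 low-mixture and 12 low-mixture by pool. The 384 between treatments in B2m-null tumours became 609, 78 thinned, 13 with the stricter gate, 28, 35 and 39. The 1 between genotypes under isotype became 6 with DESeq2, 28 without a filter, 4 without Il2ra or Ikzf2 and 0 with the pool as unit, at least 20 cells per mouse, thinned, the stricter gate and both low-mixture settings. The 39 between genotypes under CD40 became 59 with DESeq2, 246 without a filter, 11 with the pool as unit, 24 thinned, 4 with the stricter gate, and 8 and 10 low-mixture. The 28 interactions became 47 with DESeq2, 95 without a filter, 0 with the pool as unit, 14 with at least 20 cells, 0 with the stricter gate, 3 without Il2ra or Ikzf2, and 8 and 0 low-mixture. In the same order, leaving out 1 lane or mouse gave 48 to 393, 101 to 761, 0 to 4, 18 to 201 and 1 to 110. The genotype count under CD40 was 201 and 151 without B2m-null CD40 replicate 1 or 2 and 59 without B2m-null isotype replicate 2. The interaction count was 3 without control isotype replicate 1, 1 without B2m-null isotype replicate 2, 110 and 80 without B2m-null CD40 replicate 1 or 2, and 10 or 2 without 1 control CD40 mouse.

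Without hashtag doublets, left out after seeing the data, the comparisons of cell sets gave 68 and 883 calls in place of 67 and 1031. Against Foxp3-positive cells 67 genes became 34 of 4724 tested with DESeq2, 160 of 16478 without a filter and 26 of 1216 thinned. With a lane left out the count was 26 to 108. Against CD8 T cells 1031 became 510 of 5231 thinned, 434 of 6527 low-mixture and 477 to 1396 with a lane left out.

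Lanes of the same replicate number did not deviate together (r = -0.18, 0.17 and 0.017 over 8155 genes), so the numbers do not pair the mice. The replicate block gave 518 calls between treatments with B2m loss and 0 between genotypes under isotype, or 1 with crossed numbers, a pairing added after seeing the data.

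No share difference had an adjusted p under 0.05 in any setting, but 6 of the 12 tests (treatment in control tumours and genotype under CD40) could not reach it with 2 control CD40 mice. None of the rest could reach it alone after adjustment, and settings with fewer mice or pools raise these limits. The lack of calls therefore says nothing of the stability of the shares. Leaving out 1 lane, the difference in share of kept cells (percentage points; treatment in control and in B2m-null tumours, then genotype under isotype and under CD40) ranged from -0.0548 to 0.860, 0.334 to 3.77, -0.648 to 0.152 and -0.391 to 3.04. For the share of T cells it ranged from -2.86 to -1.34, -0.897 to 4.35, -1.58 to 1.78 and 0.876 to 6.12, and for the Foxp3-free share from 23.9 to 41.02, 30.5 to 38.7, -14.7 to 2.43 and -6.64 to -2.99. With all kept barcodes per pool, signs turned for the T cell share (treatment with B2m loss, -0.884, and genotype under isotype, 2.13) and the Foxp3-free share (genotype under isotype, 1.49). The last was 3.50 thinned, and genotype under CD40 was 0.152 with the stricter gate.

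Signs of single genes also turned. With the stricter gate this held in B2m-null tumours, where it left 1 and 18 isotype cells by lane. The genes were Atf3 (4.13), Ccl3 (4.24), Gzmb (-0.38), Isg15 (-0.84) and Rgs16 (-0.61), and in control tumours Cd209a (3.30) and Napsa (3.805). With low-mixture barcodes, by mouse and by pool, it held in B2m-null tumours for Ccl3 (0.40 and 0.21), Jun (0.40 and 0.47) and Rgs16 (-0.37 and -0.37), and in the interaction for Ifng (0.52 and 0.56) and, by mouse, Cxcr6 (-0.20). Tbx21 in control tumours was 0.028 low-mixture by pool and 0.21 with the pool as unit, where Rgs16 in B2m-null tumours was -0.025. In cells without Il2ra or Ikzf2 UMIs Cd40lg (-0.40) and Nr4a3 (2.51) turned in B2m-null and Gzmb (0.18) in control tumours. The Ifng interaction was 0.26 with at least 20 cells per mouse and 0.041 thinned. With 1 lane or mouse left out, ranges that crossed 0 in B2m-null tumours were Cd40lg -0.86 to 0.68, Gzmb -0.32 to 0.74, Isg15 -0.20 to 1.31 and Rgs16 -0.98 to 0.50, in control tumours Cxcr3 -0.52 to 1.14 and Tbx21 -0.34 to 0.022, and in the interaction Cxcr6 -0.87 to 2.54 and Ifng -1.51 to 0.26.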
